A study of Homo sapiens with 8 samples.

Results

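Fc receptors bind the constant part of antibodies. The 9 genes described here were the symbols FCGR1A, FCGR1B, FCGR2A, FCGR2B, FCGR3A, FCAR, FCER1G, FCGRT and FCRLA, taken by name from the 26364 gene symbols of an RNA-seq table of MV4-11 cells. MV4-11 is an established acute myeloid leukemia (AML) line, which the labels give as FLT3-ITD and MLL-AF4, and all libraries therefore came from this line and carried both lesions. Cells received DMSO (control), the LSD1 inhibitor tranylcypromine (TCP) at 5 µM, the CDK4/6 inhibitor palbociclib at 0.5 µM, or both drugs (combination), and RNA was taken at day 4 from 2 libraries per group, 8 in all. The labels give 4 days for both drugs, whereas the study's methods describe palbociclib being given before TCP was added. The question was what each drug and their combination did to the transcripts of these cells. A single cell line was sampled, and the study grew its lines on HS-5 human stromal cells.

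Fc receptors link antibodies to myeloid cells. The activating receptors FCGR1A (CD64), FCGR2A (CD32A) and FCGR3A (CD16A) bind IgG and FCAR (CD89) binds IgA. FCGR2A carries its own activating signal motif, whereas FCGR1A, FCGR3A and FCAR borrow that of FCER1G, the Fc receptor common gamma chain. FCGR2B (CD32B) binds IgG and inhibits, through a motif that recruits the phosphatase SHIP1. FCGRT encodes the neonatal Fc receptor, which pairs with β2-microglobulin to recycle IgG, and FCRLA is an intracellular relative known from B cells.

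Values were deposited as TPM, transcript abundance relative to the library's whole, a level scaled for gene length and library total, so that levels of different genes can be set side by side but the sequencing depth is unknown. Differences were tested with limma on log2(TPM + 1) over 14151 symbols (those reaching 1 TPM in 2 or more libraries), and a gene counted as changed where it moved by 1 or more on that log2 scale, up or down, with a Benjamini-Hochberg adjusted p below 0.01. All 9 genes passed that filter, FCGR3A through the combination libraries alone, FCAR through the palbociclib and combination libraries, and FCRLA through the TCP and combination libraries. Replicates of a group correlated at r = 0.983 to 0.991, and the labels do not say that they came from separate cultures, so the p-values measure the spread between these libraries, which may be technical. Each library had 13320 to 13640 genes at 1 TPM or more, and the 10 highest genes took 9.12 to 9.67% of all TPM in the control and TCP libraries and 14.0 to 15.8% in the palbociclib and combination libraries. The myeloid marker CD33 was present in all libraries at 103 to 141 TPM. Palbociclib replicate 2 stood apart in a list of 12 stromal markers, whose sum was 86.8 TPM there and 11.9 to 30.8 TPM elsewhere. Most of the sum elsewhere was TAGLN. COL1A1 and COL1A2 were higher in replicate 2 than in replicate 1 of every group, whereas TAGLN was not. COL1A1 was at 0.185 and 1.23 TPM in control and 0.151 and 1.79 TPM under TCP. It was at 1.32 and 22.2 TPM under palbociclib and 2.29 and 3.78 TPM under the combination.

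Of the 9 genes, 7 lie on chromosome 1, and FCAR and FCGRT lie on chromosome 19. In GRCh37, FCER1G spans chr1:161185024-161190489, FCGR2A chr1:161475220-161493803, FCGR3A chr1:161511549-161520758 on the reverse strand, FCGR2B chr1:161632933-161648444 and FCRLA chr1:161676762-161684142. FCGR1A spans chr1:149754227-149763231, and FCGR1B, annotated as a transcribed pseudogene, chr1:120928331-120934573 on the reverse strand. FCAR spans chr19:55385691-55402786 and FCGRT chr19:50010073-50029685, both on the forward strand.

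The promoters of FCGR1A, FCGR2A and FCRLA are printed because they share a stretch of sequence although the 3 genes had different patterns across the drugs. RefSeq starts on GRCh38.p14 were matched for 7 of the 9 genes, all but FCGR1B and FCAR. The 120 bases before each start are given 5′ to 3′ on the forward strand, with the shared 15 bases in capitals, at chr1:149782574-149782693 for FCGR1A, chr1:161505337-161505456 for FCGR2A and chr1:161707109-161707228 for FCRLA.
FCGR1A: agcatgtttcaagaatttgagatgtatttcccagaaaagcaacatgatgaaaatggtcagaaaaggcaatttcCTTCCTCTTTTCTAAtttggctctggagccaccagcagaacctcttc
FCGR2A: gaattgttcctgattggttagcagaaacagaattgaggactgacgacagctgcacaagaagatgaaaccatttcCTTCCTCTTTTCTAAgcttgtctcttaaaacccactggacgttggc
FCRLA: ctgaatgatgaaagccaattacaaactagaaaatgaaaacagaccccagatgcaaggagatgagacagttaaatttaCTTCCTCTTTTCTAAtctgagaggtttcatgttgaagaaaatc
The stretch CTTCCTCTTTTCTAA began 47, 46 and 43 bases before the starts of FCGR1A, FCGR2A and FCRLA, respectively, and these 3 were the only ones among 35116 RefSeq promoter windows of 300 bases to hold it on either strand (0.00854%). The stretch and the set of 3 genes were chosen after the sequences were seen. It contains the reverse complement of GAGGAA, a form of the core bound by PU.1-type ETS factors, which on either strand was present in 4 of the 7 member windows (these 3 and FCGRT) and in 27.9% of all windows. The other 4 motifs searched on both strands were GGAA (6 of 7 windows, 95.5% of all), which GAGGAA contains, TTNCNNAA (2 of 7, 36.8%), TTCNNNGAA (FCGR1A alone, 7.66%) and the core of the interferon-stimulated response element (FCRLA alone, 3.57%). These are matches of letters and do not show binding. The window of FCGR2B, 1 of the 7, is uncertain, since the sequence just after its start was found in no annotated transcript of the gene.

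In control cells the high-affinity receptor led the family. FCGR1A was at 77.8 and 61.4 TPM, ahead of FCER1G at 43.6 and 28.02 TPM and FCGR2A at 40.9 and 37.4 TPM; FCER1G and FCGR2A overlapped and took either order. FCGRT followed at 17.2 and 15.9 TPM. FCGR1B, at 7.12 and 4.23 TPM, came next, and FCGR2B, at 4.00 and 2.92 TPM, was below it without overlap. FCRLA (0.206 and 0.365 TPM) and FCAR (0.0464 and 0.329 TPM) were at low levels that overlapped, and FCGR3A was listed at 0 in both libraries. The 9 genes together made up 150.5 to 190.9 TPM in control, 185.5 to 260.0 TPM with TCP, 664 to 706 TPM with palbociclib and 1182 to 1264 TPM with both drugs. In the combination libraries FCER1G led and supplied 56.6 to 61.1% of that sum, against 18.6 to 22.9% in control.

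**Figure D1:**
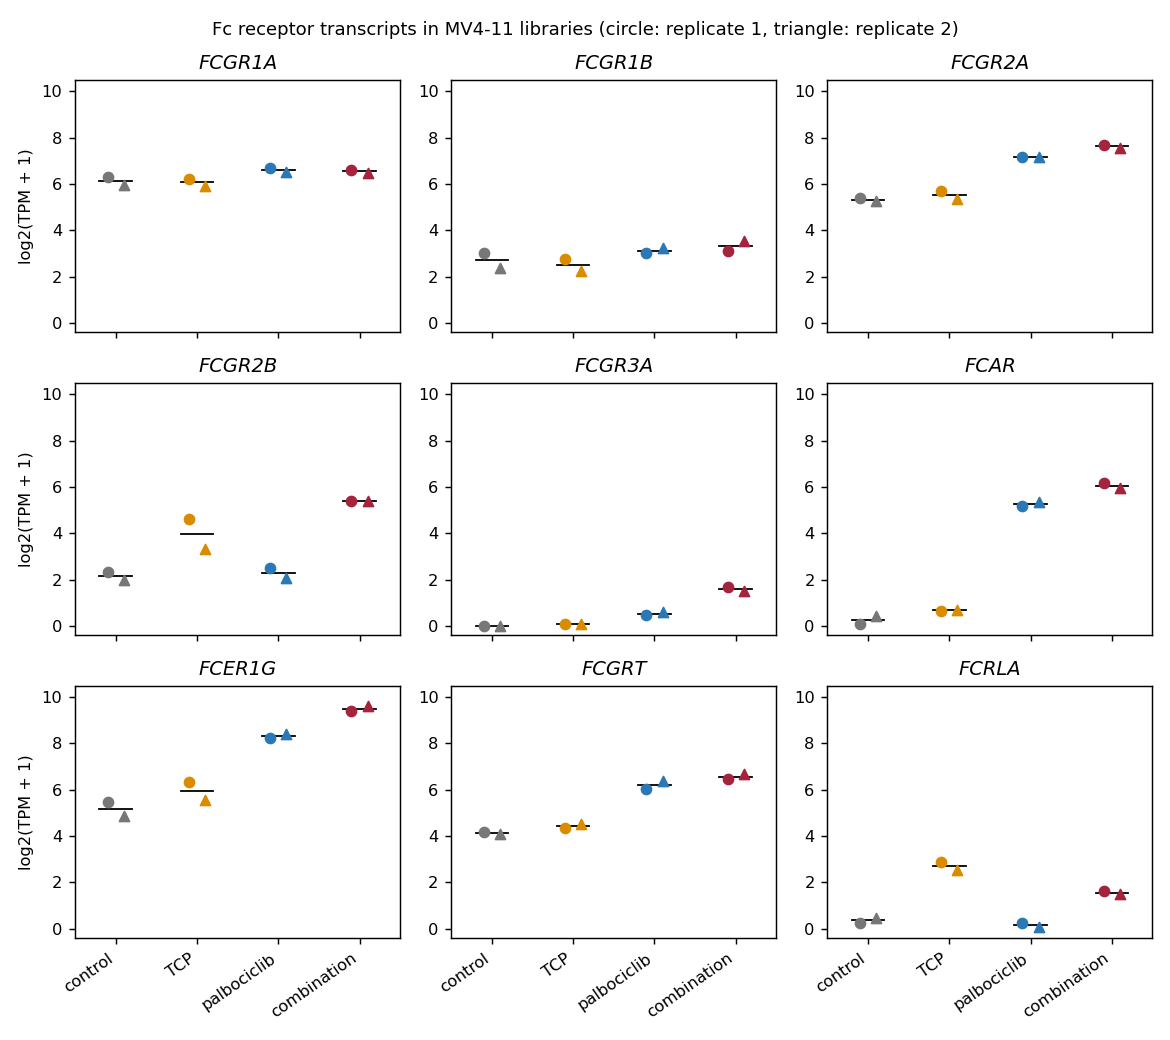
Level of each of the 9 Fc receptor genes as log2(TPM + 1), in 4 groups of 2 libraries (circle, replicate 1; triangle, replicate 2; black line, group mean). FCGR1A and FCGR1B stayed within narrow bands, FCGR2A, FCAR, FCER1G and FCGRT stepped up with palbociclib, and FCGR2B and FCRLA were high in the libraries that had received TCP.

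Palbociclib alone raised 4 of the 9 genes (FCGR2A, FCAR, FCER1G and FCGRT) and lowered none, beside 9.1% of all tested genes changed in either direction. The combination raised 7 of the 9, all but FCGR1A and FCGR1B. Over all tested genes 13.7% changed in either direction, and 830 of 14151 were called higher. Of the 7, FCGR3A, FCAR and FCRLA passed the filter on low values only through treated libraries where they were high. In all 9 genes both combination libraries were above both control libraries, as they were in 26% of all tested genes. TCP alone changed only FCRLA, 1 of 9, beside 0.0565% of all tested genes (8 genes, all higher; 4 of the 9 and 1241 of all genes had an unadjusted p under 0.05). The 9 genes had a median log2 fold change of 0.31 with TCP, 0.53 with palbociclib and 2.30 with both drugs, against -0.04, -0.16 and -0.22 over all tested genes. These 3 comparisons share the 2 control libraries.

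Against TCP alone, the combination changed 6 of the 9 genes, beside 12.2% of all tested genes. FCGR2A, FCGR3A, FCAR, FCER1G and FCGRT were higher and FCRLA was lower. Of the higher genes, FCGR3A passed the filter on low values through the combination libraries alone. FCAR passed it only through the palbociclib and combination libraries, and FCRLA only through the TCP and combination libraries. Against palbociclib alone, none of the 9 passed in the limma fit, beside 0.502% of all tested genes, while 7 of the 9 (FCGR2A, FCGR2B, FCGR3A, FCAR, FCER1G, FCGRT and FCRLA) and 2472 of all genes had an unadjusted p under 0.05. The interaction, which asks whether the combined change on the log2 scale differs from the sum of both single changes, was called for none of the 9 and for 0% of all tested genes by limma, with an unadjusted p under 0.05 for FCGR3A and FCRLA and for 904 of all genes. Departure from additivity on that scale was thus not detected for any receptor.

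**Figure D2:**
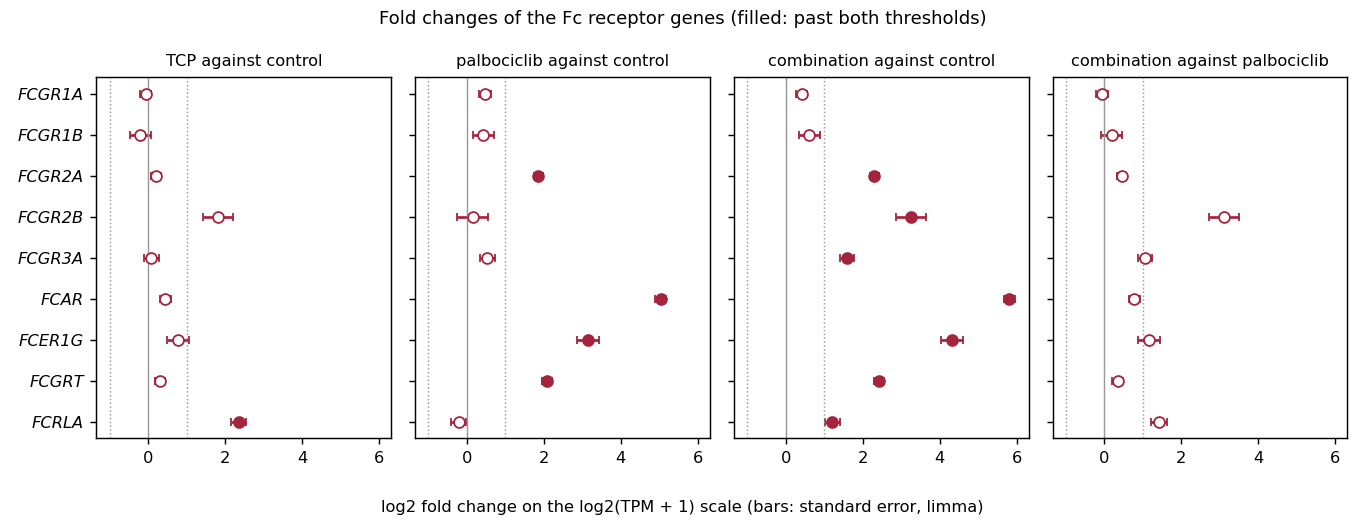
Log2 fold change on the log2(TPM + 1) scale of the 9 genes in 4 comparisons, with limma standard errors as bars, solid line at 0 and dotted lines at 1 and -1; filled points passed both thresholds. The combination against control has 7 filled points, palbociclib 4, TCP 1 and the combination against palbociclib 0.

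Among the activating IgG receptors, FCGR2A, which signals through its own cytoplasmic motif, was at 40.9 and 37.4 TPM in control, 50.7 and 40.1 TPM under TCP, 143 and 145 TPM under palbociclib, and 207 and 186 TPM under the combination. The palbociclib and combination libraries were above all others and did not overlap each other, while TCP overlapped control. The mean level rose 3.68-fold under palbociclib (log2 fold change 1.86, SE 0.12, adjusted p = 0.000117) and 5.03-fold under the combination (2.30, SE 0.12, adjusted p = 3.18e-05). The difference between the combination and palbociclib was 0.45 on the log2 scale (SE 0.12, adjusted p = 0.114).

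FCGR1A, the high-affinity IgG receptor, was at 77.8 and 61.4 TPM in control, 73.1 and 59.5 TPM under TCP, 103 and 89.6 TPM under palbociclib, and 95.6 and 89.0 TPM under the combination. Both palbociclib-containing groups lay above control without overlap, but the log2 fold changes of 0.47 (SE 0.15, adjusted p = 0.0376) and 0.41 (SE 0.15, adjusted p = 0.0513) passed neither threshold. FCGR1B was at 7.12 and 4.23 TPM in control, which overlapped both TCP (5.70 and 3.76 TPM) and palbociclib (7.06 and 8.41 TPM), while TCP lay below palbociclib, and it was at 7.54 and 10.6 TPM under the combination (log2 fold change against control 0.61, SE 0.27, adjusted p = 0.0978). FCGR1A was the highest of the 9 genes in control and below FCER1G and FCGR2A in every palbociclib and combination library.

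FCGR3A, the CD16A receptor of NK cells and some monocytes, was listed at 0 in both control libraries, at 0.0533 and 0.0651 TPM under TCP, at 0.386 and 0.509 TPM under palbociclib, and at 2.22 and 1.82 TPM under the combination. The 4 groups did not overlap, and the combination libraries alone exceeded 1 TPM. The fitted log2 change against control was 1.59 (SE 0.19, adjusted p = 0.000548) with 1 TPM added to each value and 4.40 with 0.1 TPM added, so its size is not a measured fold. The difference of the combination from palbociclib was 1.06 (SE 0.19, adjusted p = 0.0336). Of the markers known from NK and T cells, CD3E, CD3G and CD2 were at 0 in every library, and 2 of the 11 listed passed the filter. The granule gene NKG7, 1 of these 2, was at 168 to 311 TPM. The other, CD8A, had a mean of 1.21 TPM in control and 0.162 TPM under the combination. Most of the list's sum was NKG7. That sum was 169 to 183 TPM in control, 297 to 311 TPM under palbociclib and 278 to 302 TPM under the combination.

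FCAR, the IgA receptor, had the largest fold change of the 9 genes in both palbociclib-containing groups. It was at 0.0464 and 0.329 TPM in control, 0.586 and 0.627 TPM under TCP, 35.5 and 40.0 TPM under palbociclib, and 69.9 and 61.2 TPM under the combination. The 4 groups did not overlap, and the step between TCP and palbociclib was far wider than the spread within any group. The log2 fold change was 5.04 (SE 0.15, adjusted p = 1.04e-05) under palbociclib and 5.82 (SE 0.15, adjusted p = 3.4e-06) under the combination, and 7.24 and 8.03 with 0.1 TPM added in place of 1 TPM. The combination exceeded palbociclib by 0.78 (SE 0.15, adjusted p = 0.0427).

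FCER1G, the signalling chain shared by FCGR1A, FCGR3A and FCAR, was at 43.6 and 28.02 TPM in control, 80.3 and 45.7 TPM under TCP, 304 and 337 TPM under palbociclib, and 669 and 772 TPM under the combination. The groups were in that order without overlap. Its mean rose 8.95-fold under palbociclib (log2 fold change 3.16, SE 0.29, adjusted p = 0.000337) and 20.1-fold under the combination (4.32, SE 0.29, adjusted p = 6.44e-05). TCP replicate 1 was 80.3 TPM and replicate 2 was 45.7 TPM, and the TCP difference of 0.78 had an adjusted p of 0.483. The combination exceeded palbociclib by 1.17 (SE 0.29, adjusted p = 0.0833). The ratio of FCER1G to FCGR1A TPM, a description chosen with the values known, was 0.456 to 0.560 in control, 2.95 to 3.76 under palbociclib and 7.00 to 8.67 under the combination.

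FCGR2B, the inhibitory IgG receptor, was at 4.00 and 2.92 TPM in control, 23.7 and 8.89 TPM under TCP, 4.71 and 3.20 TPM under palbociclib, and 41.5 and 41.2 TPM under the combination. Control and palbociclib overlapped, both TCP libraries were above them, and both combination libraries were above TCP. The mean rose 11.96-fold under the combination (log2 fold change 3.26, SE 0.39, adjusted p = 0.000608), and the value under palbociclib was 0.15 (SE 0.39, adjusted p = 0.784). The TCP replicates differed from each other, and the log2 fold change of 1.82 (SE 0.39) had an adjusted p of 0.166. Against palbociclib the combination was higher by 3.11 (SE 0.39, adjusted p = 0.012), just outside the threshold. With 1 library left out, FCGR2B passed where that library was from TCP and in no other case. TCP libraries enter this comparison only through the estimate of spread shared by all groups. Against TCP the combination was higher by 1.44 (adjusted p = 0.0207). Without TCP replicate 1, the higher of the TCP libraries, the difference was 2.10, and without TCP replicate 2 it was smaller than 1.44.

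The ratio of FCGR2A to FCGR2B, activating over inhibitory, lay on opposite sides of control under the 2 drugs. It was 10.2 and 12.8 in control, 2.14 and 4.51 under TCP, 30.4 and 45.2 under palbociclib, and 5.00 and 4.52 under the combination. Palbociclib libraries were above control and the TCP and combination libraries were below it, with no overlap. The ratio was chosen with the values known and is given as a description, with no test. Of the 50-base windows of their annotated transcripts, 10.2% of FCGR2A and 12.7% of FCGR2B also occur in FCGR2C. The effect of read assignment among these genes on the ratio was not tested.

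**Figure D3:**
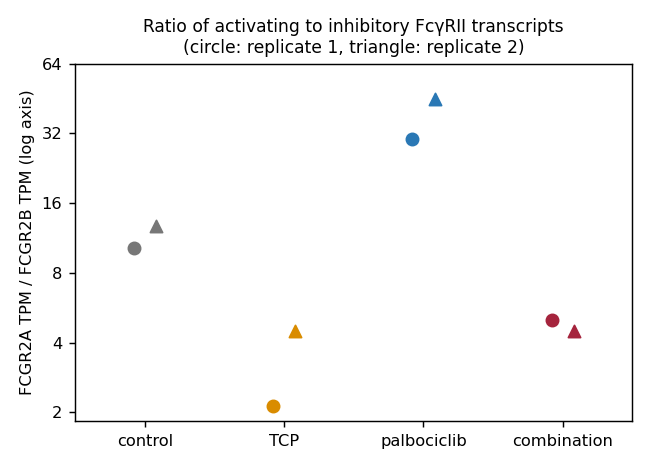
Ratio of FCGR2A to FCGR2B TPM in each library on a log axis (circle, replicate 1; triangle, replicate 2). Palbociclib libraries sit at 30.4 and 45.2, above control at 10.2 and 12.8, and the TCP and combination libraries sit between 2.14 and 5.00.

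FCGRT, the IgG-recycling receptor, was at 17.2 and 15.9 TPM in control, 19.3 and 22.05 TPM under TCP, 65.2 and 82.4 TPM under palbociclib, and 86.5 and 100.1 TPM under the combination. The 4 groups did not overlap, with TCP close to control. Its mean rose 4.46-fold under palbociclib (log2 fold change 2.09, SE 0.14, adjusted p = 0.000118) and 5.65-fold under the combination (2.43, SE 0.14, adjusted p = 3.88e-05). Its partner B2M, which also serves the MHC class I molecules, was at 3495 to 4269 TPM in control and 6690 to 6695 TPM under the combination, a log2 fold change of 0.79 (SE 0.14, adjusted p = 0.00276) that was below 1. There were 220.5 to 248 B2M transcripts per FCGRT transcript by TPM in control and 66.9 to 77.4 under the combination.

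FCRLA, the intracellular relative, was the gene called under TCP. It was at 0.206 and 0.365 TPM in control, 6.44 and 4.76 TPM under TCP, 0.174 and 0.0431 TPM under palbociclib, and 2.12 and 1.80 TPM under the combination. The 4 groups did not overlap, with TCP highest, then the combination, control and palbociclib. The log2 fold change was 2.35 under TCP (SE 0.20, adjusted p = 0.00956) and 1.21 under the combination (SE 0.20, adjusted p = 0.00219), the combination was lower than TCP by a log2 difference of -1.15 (SE 0.20, adjusted p = 0.00298), and the difference of the combination from palbociclib was 1.42 (adjusted p = 0.0157). With 0.1 TPM added in place of 1 TPM these values were 3.90 (adjusted p = 0.0282), 2.45 (0.0038), -1.46 (0.0321) and 3.38 (0.0161), so the calls under TCP and against TCP were lost and the sizes depend on the value added. The TCP call lay close to the threshold: it was lost when any 1 of the 8 libraries was left out (adjusted p 0.0372 to 0.115), although both TCP libraries were far above both controls. The call under the combination was lost without either control library or either combination library (adjusted p 0.0103 to 0.0179), and the call against TCP without TCP replicate 1 or either combination library (0.0154 to 0.0249). Of the B cell markers, MS4A1 and CR2 were at 0 in every library, none of the 6 tested of 10 passed under TCP, and the list's sum was 17.2 to 28.9 TPM in control and 20.1 to 34.9 TPM under TCP. Under the combination 1 of the 6 passed (FCER2, higher) and the sum was 65.7 to 71.5 TPM, most of it FCER2; the part of B cell transcripts in the FCRLA values was not tested.

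FCGR2B and FCRLA, the 2 of the 9 genes that were highest in the groups given TCP, are neighbours among the receptor genes along chromosome 1, with 28.3 kb between the end of FCGR2B and the start of FCRLA. The stretch from FCER1G to FCRLB covers 512.9 kb and 8 genes of the Fc receptor lists. FCER1G lies apart, with a gap of 284.7 kb to FCGR2A, whereas the other gaps were 7.2 to 31.2 kb. Genes of the stretch outside these lists were not looked at. Along it, the log2 fold change under palbociclib was 3.16 at FCER1G, 1.86 at FCGR2A, 0.53 at FCGR3A, 0.76 at FCGR2C, 0.15 at FCGR2B, -0.21 at FCRLA and 0.72 at FCRLB. Under TCP it was 0.78, 0.20, 0.08, 1.04, 1.82, 2.35 and 0.73 at the same 7 genes, so that FCRLB, next to FCRLA, had nearly equal values under both drugs. The order along the chromosome was looked at with the values known and was not tested. FCGR2C, which lies between FCGR2A and FCGR2B, was at 4.79 and 4.04 TPM in control and 47.0 and 53.4 TPM under the combination (log2 fold change 3.24, SE 0.46, adjusted p = 0.00121). FCRLB, next to FCRLA, was at 2.13 and 3.36 TPM in control, 5.38 and 4.85 TPM under TCP, 4.48 and 5.71 TPM under palbociclib and 7.25 and 10.2 TPM under the combination (1.38, SE 0.22, adjusted p = 0.00207).

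**Figure D4:**
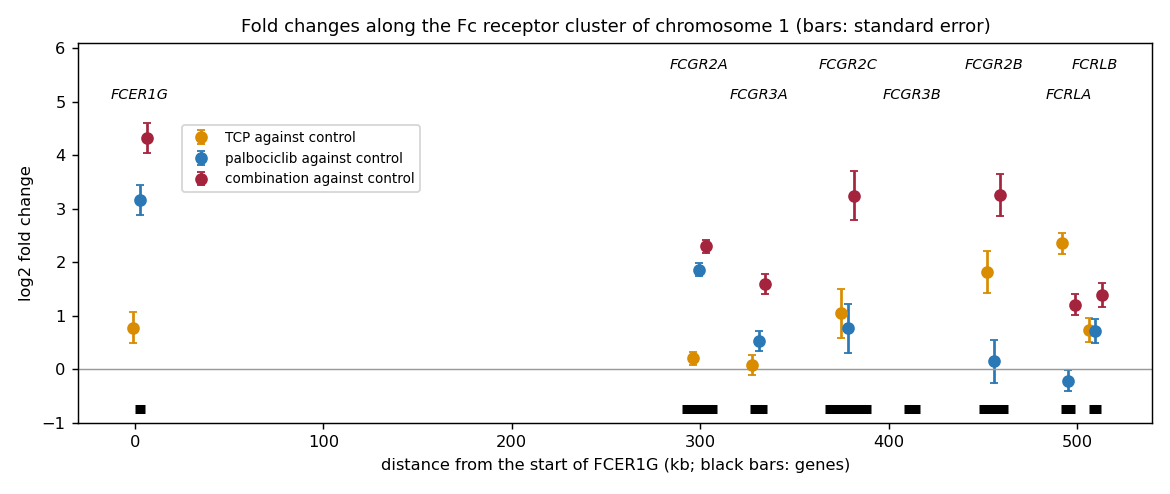
Log2 fold change against control, with limma standard errors, of the Fc receptor genes along chromosome 1, plotted by distance in kb from the start of FCER1G (black bars, genes; FCGR3B was not tested). TCP values are highest at FCGR2B (1.82) and FCRLA (2.35), and palbociclib values at FCER1G (3.16) and FCGR2A (1.86).

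Sequence shared between copies limits how reads are assigned. Of the 50-base windows of their annotated transcripts, 34.4% of FCGR1A were shared with FCGR1C, 10.8% of FCGR2A and 13.2% of FCGR2B with other FCGR2 genes, and 16.6% of FCGR3A with FCGR3B; 39.7% of FCGR2C was shared, so FCGR2C and FCGR1B, whose annotated sequence was too short for this check, are uncertain. FCGR3B was at no more than 0.0794 TPM in any library. FCGR2A, FCGR3A, FCAR and FCER1G also overlap another annotated gene on the same strand, and FCGR1A, FCGR1B, FCGR2B and FCGR3A one on the other strand.

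Over the 8 libraries, FCGR2A, FCAR, FCER1G and FCGRT had similar profiles (Pearson r of log2(TPM + 1) 0.971 to 0.993), and FCRLA ran apart from them (r = -0.225 to -0.069) but correlated with FCGR2B at 0.687. The libraries share treatments, so these values describe the 4 groups more than 8 separate points. Among all tested genes the profiles most like each changed receptor were CYP1B1 and PSAP for FCGR2A (both 0.999), ITGAM and EVI2B for FCGR2B (both 0.988), CR1 (0.998) and FILIP1L (0.996) for FCGR3A, LAMP1 and CYB5R1 for FCAR (both 0.999), ITGB2-AS1 (0.998) and LSP1 (0.996) for FCER1G, GAA and ITGB2 for FCGRT (both 0.998), and RNF126P1 (0.985) and STS (0.983) for FCRLA. The integrin alpha chain ITGAM, for example, was at 2.23 and 1.23 TPM in control, 6.50 and 3.10 TPM under TCP, 1.91 and 1.80 TPM under palbociclib, and 13.3 and 11.0 TPM under the combination, the same order of groups as FCGR2B apart from the overlap of control and palbociclib.

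Monocyte markers were mostly higher in the same groups. Of 9 monocyte and macrophage markers tested of 12 listed, TCP raised 1 (VCAN), palbociclib raised 5 and the combination raised 8. Over all tested genes 0.0565%, 9.1% and 13.7% were called in these comparisons, in either direction. Under palbociclib 8 of the 9 had a log2 fold change above 0, and ITGAX had -0.58 (adjusted p = 0.322). The list's summed level was 466 to 946 TPM in control and 968 to 1947 TPM under TCP. It was 17240 to 19920 TPM under palbociclib and 27980 to 30080 TPM under the combination, most of it LYZ. The macrophage receptor MRC1 was at 0 in every library. In these bulk libraries more cells that express a gene and more RNA per cell cannot be told apart. Of 3 neutrophil markers tested of 10 listed, 2 were higher under palbociclib (CSF3R and CXCR2) and 2 under the combination (CSF3R and MMP9). The list summed to 64.2 to 72.9 TPM in control, 367.7 to 368.8 TPM under palbociclib and 300 to 314 TPM under the combination. Most of each sum was CSF3R, while FCGR3B, CEACAM8, MMP8 and LTF were at no more than 0.0794 TPM in any library. Mast cell and basophil markers summed to 2.01 to 6.52 TPM, with CPA3 at 0 in every library and FCER1A, the IgE-binding chain that pairs with FCER1G, at 0 in 7 of 8. Stromal markers summed to 11.9 to 13.5 TPM in control, 18.5 and 86.8 TPM under palbociclib and 25.0 to 30.8 TPM under the combination, none of the 6 tested changed, and without palbociclib replicate 2 the same 4 receptors remained called under palbociclib. The part of these other cell types in the receptor values was not tested.

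The counts of the pathway lists stand beside 0.0565%, 9.1% and 13.7% of all tested genes called under TCP, palbociclib and the combination. Other immunoglobulin receptors were tested for 8 of 18 symbols. None changed under TCP or palbociclib, and 4 rose under the combination (FCGR2C, FCER2, FCRLB and PIGR; median log2 fold change of the 8 genes 1.16). FCER2 (CD23), the low-affinity IgE receptor, was at 18.9 and 9.34 TPM in control, 24.7 and 11.0 TPM under TCP, 13.0 and 12.9 TPM under palbociclib, and 65.5 and 59.9 TPM under the combination (2.15, SE 0.40, adjusted p = 0.00369). Of the 3 treated groups, only the combination lay above both control libraries for this gene. The count of 4 was 2 without control replicate 1 or combination replicate 1 and 1 without control replicate 2 or combination replicate 2.

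Among 26 tested genes of immunoreceptor activation motif (ITAM) adaptors and proximal signalling, 7 rose and 0 fell under palbociclib and 7 rose and 1 fell (VAV3, a guanine nucleotide exchange factor) under the combination (median 0.23), whereas none changed under TCP. TYROBP (DAP12), the other ITAM adaptor of myeloid cells, was at 120.4 and 120.8 TPM in control, 148.5 and 147.5 TPM under TCP, 525 and 616 TPM under palbociclib, and 602 and 675 TPM under the combination (2.39, SE 0.10, adjusted p = 1.58e-05). The level of FCER1G relative to TYROBP was 0.232 to 0.362 in control and 1.11 to 1.14 under the combination. The SRC-family kinase FGR was at 19.8 and 21.99 TPM in control and 216 and 229 TPM under the combination (3.35, SE 0.10, adjusted p = 5.45e-06). LYN, of the same family, had a log2 fold change of 1.595 (adjusted p = 1.58e-05), and the adaptor FYB one of 1.46 (adjusted p = 3.19e-05). SYK, the kinase that docks on phosphorylated ITAMs, was at 55.0 and 65.9 TPM in control and 69.8 and 81.1 TPM under the combination (0.32, SE 0.12, adjusted p = 0.0682), a difference under the thresholds; SYK was named for its role and not by the rule for named genes.

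Of the inhibitory signalling genes, 1 was higher (DOK3, an adaptor, log2 fold change 1.26, adjusted p = 0.000285) and 1 was lower (PAG1, which anchors the kinase CSK, -1.70, adjusted p = 0.000577) of 14 tested under the combination, the same 2 genes in the same directions under palbociclib, and none under TCP; 2 of 14 is close to the 13.7% of all tested genes. The genes of the phagocytic cup and actin gave 1 higher (MARCKS, 2.67, SE 0.47, adjusted p = 0.00313) and 1 lower (PLA2G4A, a phospholipase, -1.13, adjusted p = 0.00205) of 31 tested under the combination, 1 higher (MARCKS) under palbociclib and none under TCP. The phagocytic count of 2 under the combination was 0 without control replicate 1 or 2 and 1 without combination replicate 2, and the count of 1 under palbociclib was 0 without control replicate 1 or 2 or palbociclib replicate 2. Median log2 fold changes under the combination were -0.01 and 0.08 for these lists.

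Regulators known to act on Fc receptor genes gave 4 higher and 1 lower of 17 under the combination (median 0.29), 2 higher and 1 lower under palbociclib and none under TCP; the total of 5 under the combination was 3 without control replicate 1 or combination replicate 2. SPI1, which encodes PU.1, was at 214 and 250 TPM in control, 208 and 264 TPM under TCP, 410 and 464 TPM under palbociclib, and 437 and 497 TPM under the combination (1.01, SE 0.14, adjusted p = 0.00121). CEBPB had a log2 fold change of 1.07 (SE 0.07, adjusted p = 6.44e-05), the interleukin-10 receptor chain IL10RA 2.68 (SE 0.17, adjusted p = 5.26e-05) and the TGF-β receptor TGFBR2 1.46 (SE 0.10, adjusted p = 7.1e-05). IRF1, an interferon-responsive factor, was the lower gene (-1.002, SE 0.10, adjusted p = 0.000237). The myeloid factors IRF8, with a log2 fold change of 0.29 (adjusted p = 0.208), and CEBPA, with -0.04 (adjusted p = 0.827), did not pass. PIGR, VAV3 and IRF1 were named after their values were seen, as genes behind small counts.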

How the data were processed

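Poly(A) RNA from MV4-11 cells was sequenced by the authors after stranded library preparation. The deposited table holds TPM per gene symbol, with 1 column per library; the authors aligned reads to GRCh37 with Subread and counted them with featureCounts (1.6.4) before computing TPM. The submitters' notes also list SAMtools 1.9 and DESeq2 1.26.0. The annotation, gene lengths and strand setting are not given in the sources used here. TPM keeps no depth, so no counting interval was computed.

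Here log2(TPM + 1) was fitted with limma 3.58.1 (R 4.3.3) with 4 group means, a mean-variance trend and 4 residual degrees of freedom, on 14151 of 26364 symbols (at least 1 TPM in at least 2 libraries). P-values were adjusted over all tested genes. The method was tested on simulated data. The members and all gene lists were chosen with earlier results of these data known. Genes outside the 9 were named by rule: up to 4 per pathway list with the largest combination change among those called with no overlap and at least 5 TPM, 4 regulators and B2M, and the 2 most similar profiles per changed receptor; others are stated where they occur, and some genes of the rule and the lists are not reported here. Positions are from the GENCODE annotation on GRCh37 and promoters from RefSeq on GRCh38.p14; the builds were not mixed. Alternatives covered pseudocount, filters, scaling, replicate block, libraries in the fit, moderation, threshold and leaving out each library.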

Additional observations from a re-analysis of the deposited data

How the results depend on the processing

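Under palbociclib against control the count of 4 receptors held under every alternative run, and the interaction count stayed at 0. The count of 7 under the combination against control ranged from 6 to 7 when 1 library was left out and was 5 where a mean of at least 5 TPM was required, since FCGR3A and FCRLA were then not tested. The count of 6 against TCP ranged from 4 to 7, and from 5 to 6 with 1 library left out. The TCP count of 1 (FCRLA) fell to 0 with a pseudocount of 0.1 TPM, with no filter, with a mean of at least 5 TPM, with quantile normalization, with median-ratio scaling and with only the groups compared, and it was 0 to 0 when any 1 library was left out; for FCRLA the log2 fold change stayed between 2.17 and 3.90 and the adjusted p between 0.00592 and 0.219. Against palbociclib the count of 0 became 1 with no filter (FCGR3A), 2 with quantile normalization (FCGR2B and FCRLA), 1 with median-ratio scaling (FCGR2B), 2 without a variance trend (FCGR3A and FCRLA) and 3 at an adjusted p below 0.05, and was 0 to 1 with 1 library left out, being 1 (FCGR2B) without either TCP library. With a mean of at least 5 TPM required, FCRLA was not tested; the cause of the other changes was not tested.

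Replicate numbers were shared across groups, but the labels tie them to no common batch. Same-numbered deviations correlated at r = 0.169 to 0.491 over the 6 group pairs. With the replicate block the counts were 1, 4, 7, 7, 1 and 0 in the order TCP, palbociclib and combination against control, combination against TCP, combination against palbociclib, and interaction; FCGR2B was the gene gained in both comparisons of the combination with a single drug.

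Of the single receptor values 841 kept their direction and side of the threshold, 15 gained and 22 lost a call, and 19 changed sign, none of them called. FCGR1A against palbociclib was 0.0056 with median-ratio scaling and the FCAR interaction was -0.70 with a pseudocount of 0.1 TPM. With 1 library left out, FCGR1A ranged from -0.24 to 0.10 under TCP, from -0.16 to 0.042 for the combination against palbociclib and from -0.16 to 0.18 for the interaction. FCGR1B ranged from -0.52 to 0.11 under TCP and from -0.028 to 0.42 for the combination against palbociclib. FCGR2B under palbociclib ranged from -0.074 to 0.37. The interaction ranged from -0.012 to 0.79 for FCER1G and from -0.13 to 0.20 for FCGRT. Median-ratio scaling moved the median of all genes from -0.16 to -0.01 under palbociclib and from -0.22 to -0.01 under the combination, and no receptor called in those comparisons lost its call. Of the counts for the other gene lists 242 stayed within 1.5 times and 13 did not, 1 of them with another setting (1 of the other immunoglobulin receptors under palbociclib with a pseudocount of 0.1 TPM) and the rest with a library left out. With 2 libraries a group and no depth, small differences and values near 0 TPM could not be resolved.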
